A study of Homo sapiens with 18 samples.

Results

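The mitochondrial genome of T47D cells, an estrogen receptor-positive luminal breast cancer line, carried 37 of the 58884 genes in the count files: 13 genes for proteins, 2 for ribosomal RNAs (rRNAs) and 22 for transfer RNAs (tRNAs). They were taken by position, as every gene that the annotation places on chromosome MT, a rule that uses no measured value. Polyadenylated RNA was sequenced from cells labelled WT and from cells labelled PARP1 KO, each given DMSO, niraparib at 10 μmol/L or olaparib at 10 μmol/L for 48 hours, with 3 libraries in each of the 6 groups. Niraparib and olaparib inhibit the poly(ADP-ribose) polymerases PARP1 and PARP2. The study reports that olaparib bound both with similar affinity, while niraparib was selective for PARP1. It also reports that niraparib, but not olaparib, bound lanosterol synthase. PARP1 KO was 1 knockout line, so line and genotype cannot be told apart. The study's methods describe separate dishes for each condition, but not whether each library is a single dish or whether the dishes were handled on separate days. P values measure the spread between these libraries only.

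Library totals lay between 28890837 and 52251288 counts. PARP1 had 313 to 368 CPM (counts scaled to a library total of 1000000) in the 9 WT libraries and 22.9 to 27.1 CPM in the 9 PARP1 KO libraries, a mean of 7.27% of WT. The 8 luminal markers were present in every library, from ESR1 at 118 to 174 CPM to KRT8 at 2586 to 4352 CPM, and in WT 7 of the 8 fell with niraparib and 7 with olaparib, where 18.1% and 7.77% of all genes fell. In PARP1 KO 4 of the 8 fell with olaparib, beside 3.87% of all genes. Of the fibroblast markers, COL1A1 lay between 86.3 and 164 CPM while COL1A2, COL3A1 and LUM stayed below 1 CPM, and the 6 leukocyte and endothelial markers reached at most 0.211 CPM.

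Mitochondrial DNA is a small circle that is copied into RNA from both strands. The RNA polymerase POLRMT starts with the help of TFAM, which also packages the DNA, and TFB2M, which opens it at the promoter. The long precursors hold tRNAs between most of the other genes, and excision of the tRNAs frees the mRNAs and rRNAs. The 13 proteins are core subunits of respiratory complexes I, III and IV and of the ATP synthase (complex V), in which they sit beside subunits from nuclear genes. The rRNAs MT-RNR1 (12S, small subunit) and MT-RNR2 (16S, large subunit) build the mitochondrial ribosome that translates these mRNAs. Most mitochondrial mRNAs carry poly(A) tails, while the mRNA of MT-ND6 is known to have almost none and the rRNAs only short stretches of A, so selection of polyadenylated RNA need not capture them alike.

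The genes lie so close together that their sequence decides which reads could be counted. Where same-strand genes overlap, a read that touches both was not counted. MT-ATP8 and MT-ATP6 share 46 bases and MT-ND4L and MT-ND4 share 7, shown here in capitals with 15 bases on each side. They lie at chrM:8512-8587 and chrM:10745-10781 on the plus strand of hg38.
MT-ATP8 and MT-ATP6 overlap: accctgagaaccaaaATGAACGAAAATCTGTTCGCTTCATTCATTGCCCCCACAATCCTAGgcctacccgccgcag
MT-ND4L and MT-ND4 overlap: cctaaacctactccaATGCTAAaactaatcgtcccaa
In both pairs the capitals open with the ATG of the second gene and close with the stop codon of the first. The shared stretch was 46 of the 207 bases of MT-ATP8 and 7 of the 297 bases of MT-ND4L. Scaled by gene length and library size (RPKM, that is CPM per kilobase of exon), MT-ATP8 had a mean of 353 over the 18 libraries and MT-ATP6 of 5433, while MT-ND4L had 3014 and MT-ND4 9520, although each pair lies on 1 mRNA. How much of these gaps comes from uncounted reads was not tested.

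Most tRNA genes gave next to no counts. All 22 together held 0.0224% of the counts on mitochondrial genes, 5 had 0 counts in all 18 libraries, and 20 had a mean below 1 CPM. The tRNA for valine, MT-TV, is joined without a gap to both rRNAs, and its 69 bases are the capitals in the stretch chrM:1587-1685 of the plus strand.
MT-RNR1, MT-TV and MT-RNR2: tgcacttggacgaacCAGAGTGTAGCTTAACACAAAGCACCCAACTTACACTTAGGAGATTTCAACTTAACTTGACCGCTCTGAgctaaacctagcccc
MT-TV had 0 counts, between neighbors with 617568 and 2714945 counts in total. The 7 tRNA genes with a gene of the same strand within 5 bases on both sides had a median of 1 count over all libraries together, and the other 15 a median of 184. The sets overlapped, since the first reached 140 counts and had 3 genes at 0, and the other had 2 genes at 0. The 2 tRNAs with a mean of at least 1 CPM, those for threonine and proline, are neighbors on opposite strands at the edge of the noncoding control region. MT-TT lies within chrM:15873-15968 on the plus strand and MT-TP within chrM:15941-16038 on the minus strand, with the gene in capitals.
MT-TT: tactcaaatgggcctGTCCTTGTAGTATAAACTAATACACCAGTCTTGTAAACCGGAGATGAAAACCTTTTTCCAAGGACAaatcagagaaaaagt
MT-TP: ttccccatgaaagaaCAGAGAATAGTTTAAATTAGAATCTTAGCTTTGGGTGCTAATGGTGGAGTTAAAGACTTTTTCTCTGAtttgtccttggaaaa
MT-TT ranged from 1.64 to 3.33 CPM and MT-TP from 1.51 to 4.97 CPM over the 18 libraries, with overlap among all groups. These counts say nothing of the mature tRNAs.

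The protein genes held 89.9% of the mitochondrial counts and the rRNAs 10.1%. The shares of mRNA counts by complex scale with gene length and are descriptive. Complex I, which takes electrons from NADH, had 7 of the 13 mRNAs and a median of 50.3% of their counts. The 3 subunits of complex IV, cytochrome c oxidase, had 34.1%, the 2 of complex V, ATP synthase, 8.50%, and MT-CYB, the only mitochondrial gene of complex III, 6.93%. Per length the levels spanned 88.2-fold, from MT-ND6 at 108 RPKM to MT-ND4 at 9520 RPKM, with MT-CO2 at 6895, MT-ATP6 at 5433 and MT-CO3 at 4922 RPKM following MT-ND4. The range without MT-ND6 ran from MT-ATP8 at 353 RPKM, and both lowest values carry a limit: uncounted overlap for MT-ATP8 and, for MT-ND6, the near absence of a poly(A) tail in RNA selected for it. Their part in these levels was not tested. MT-ND6 is the only protein gene on the minus strand, and its mRNA is G-rich at 35.6% G, against 6.28% to 16.2% in the other 12. In 6 mRNAs (MT-ND1, MT-ND2, MT-ND3, MT-ND4, MT-CO3 and MT-CYB) the annotated length ends in T or TA with no full stop codon, which the poly(A) tail is known to complete.

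The share of all counts that fell on the 37 genes did not separate the groups. It was 5.60%, 4.61% and 4.39% in the WT DMSO libraries, 4.84%, 5.22% and 4.65% with niraparib, and 4.88%, 4.86% and 5.57% with olaparib. In PARP1 KO it was 4.55%, 4.71% and 5.02% with DMSO, 4.93%, 4.64% and 5.58% with niraparib, and 4.60%, 4.69% and 5.68% with olaparib. Every pair of groups overlapped, and the group means lay between 4.76% and 5.10%. The difference from DMSO was 0.0333 percentage points with niraparib (P = 0.90) and 0.237 with olaparib (P = 0.60) in WT, and 0.294 (P = 0.50) and 0.233 (P = 0.70) in PARP1 KO (2-sided exact permutation test, smallest P possible 0.10). Between genotypes, with the treatments as strata, PARP1 KO minus WT was -0.026 percentage points (exact permutation P = 0.90). In bulk RNA, a change in fewer cells and a smaller change in every cell cannot be told apart, and neither can mitochondrial DNA copy number and transcription per copy.

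**Figure D1:**
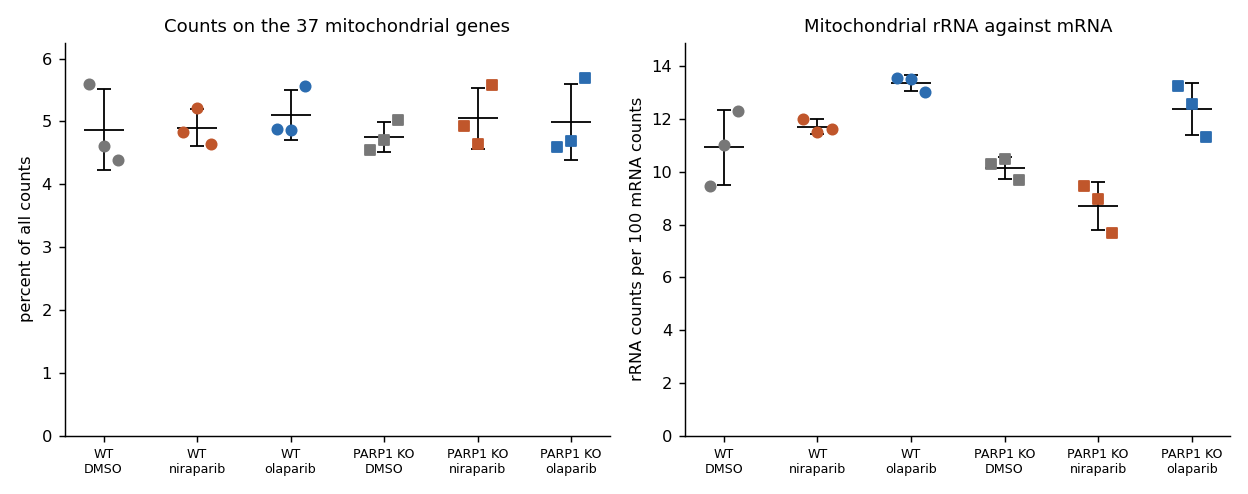
Left, percent of all counts on the 37 mitochondrial genes; right, mitochondrial rRNA counts per 100 mitochondrial mRNA counts; each point is 1 library (circles WT, squares PARP1 KO), with group mean and SD (n = 3). The shares overlap among all 6 groups (4.39% to 5.68%), while the rRNA ratio lies above DMSO with olaparib in both genotypes.

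The rRNAs were the members that edgeR called as changed. With olaparib, MT-RNR1 and MT-RNR2 rose in WT and in PARP1 KO by 1.18-fold to 1.29-fold, and both were lower with niraparib than with olaparib in both genotypes. None of these changes reached 1.5-fold.

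MT-RNR1, the 12S rRNA (chromosome MT from 648 to 1601), had 912, 828 and 915 CPM in the WT DMSO libraries, 829, 896 and 792 CPM with niraparib and 995, 1050 and 1092 CPM with olaparib. All olaparib libraries lay above all DMSO libraries, and niraparib overlapped DMSO. In WT, CPM did not overlap between olaparib and DMSO for 36.1% of all genes, in either direction. The PARP1 KO libraries had 881, 872 and 842 CPM with DMSO, 840.1, 734 and 824 CPM with niraparib and 1023, 1060 and 1208 CPM with olaparib. Olaparib was again above DMSO in every library, and niraparib below it by a narrow gap. In PARP1 KO, 26.6% of all genes did not overlap between olaparib and DMSO, and 15.5% between niraparib and DMSO. The log2 fold change with olaparib was 0.24 (SE 0.054, adjusted P = 0.0028, edgeR) in WT and 0.35 (SE 0.059, adjusted P = 9.4e-04) in PARP1 KO. With niraparib it was -0.17 in WT (SE 0.054, adjusted P = 0.014, edgeR) and -0.13 in PARP1 KO (SE 0.059, adjusted P = 0.52). The WT call with niraparib is small and rests on scaling: the ratio of mean CPM was -0.08 on the log2 scale, since the TMM factors were 1.05 to 1.08 in the WT niraparib libraries and 0.987 to 0.993 with DMSO. It was lost without WT DMSO replicate 3 (-0.15, adjusted P = 0.068, edgeR) and without WT niraparib replicate 3 (-0.13, adjusted P = 0.095).

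MT-RNR2, the 16S rRNA (chromosome MT from 1671 to 3229), had 3931, 3748 and 3894 CPM in the WT DMSO libraries, 4362, 4482 and 4052 CPM with niraparib and 4824, 4747 and 5327 CPM with olaparib. The PARP1 KO libraries had 3361, 3593 and 3589 CPM with DMSO, 3417, 3084 and 3155 CPM with niraparib and 4359, 4176 and 4572 CPM with olaparib. Olaparib libraries were the highest of their genotype without overlap. Over all genes, 36.1% in WT and 26.6% in PARP1 KO did not overlap between olaparib and DMSO, in either direction. Between the drugs, 45.2% and 25.9% did not. The log2 fold change with olaparib was 0.36 (SE 0.056, adjusted P = 8.1e-05, edgeR) in WT and 0.32 (SE 0.054, adjusted P = 8.3e-04) in PARP1 KO. With niraparib it was 0.06 (SE 0.056, adjusted P = 0.43, edgeR) in WT, although the CPM did not overlap, as for 47% of all genes. In PARP1 KO it was -0.14 (SE 0.054, adjusted P = 0.42, edgeR).

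**Figure D2:**
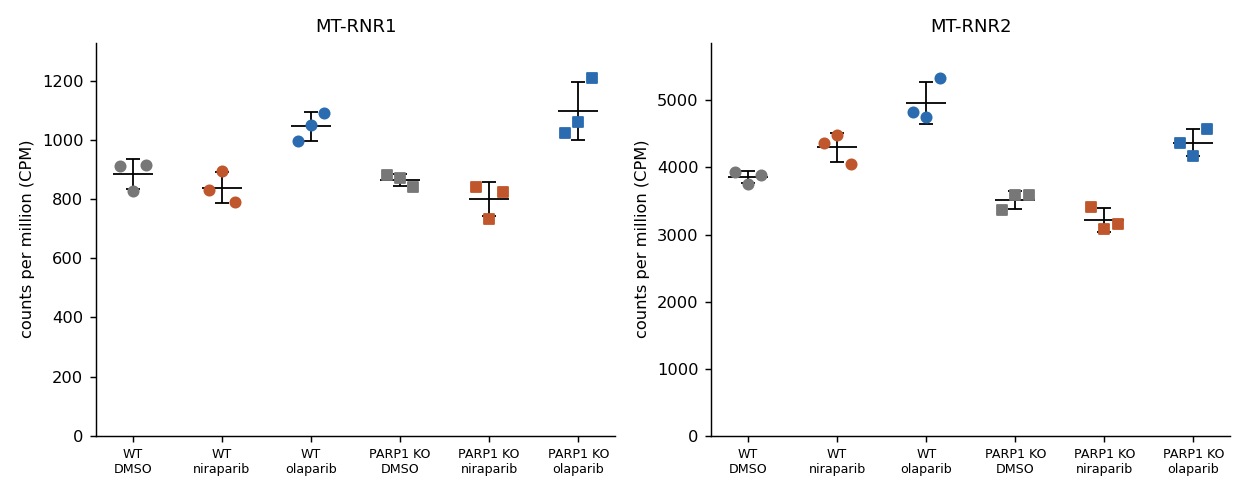
MT-RNR1 (left) and MT-RNR2 (right) in CPM in each of the 18 libraries, by genotype and treatment; circles are WT, squares PARP1 KO, with group mean and SD (n = 3). In both genotypes the 3 olaparib libraries lie above the 3 DMSO libraries for both rRNAs. Olaparib and DMSO did not overlap, in either direction, for 36.1% of all genes in WT and 26.6% in PARP1 KO.

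Set against each other at the same dose and time, the drugs differed for both rRNAs. Niraparib minus olaparib was -0.41 for MT-RNR1 (SE 0.054, adjusted P = 3.1e-06, edgeR) and -0.30 for MT-RNR2 (SE 0.056, adjusted P = 2.2e-04) in WT, on the log2 scale. In PARP1 KO it was -0.48 for MT-RNR1 (SE 0.059, adjusted P = 6.1e-05, edgeR) and -0.46 for MT-RNR2 (SE 0.054, adjusted P = 2.6e-05). Of the 28 members with enough counts for the fits, these 2 were the only ones that edgeR called in either genotype (adjusted P below 0.05), and DESeq2 also called 1 mRNA in WT and 3 in PARP1 KO. Over all genes edgeR called 32.2% of 22446 in WT and 10% of 22037 in PARP1 KO. For olaparib against DMSO, the 2 calls stood beside 19% of all genes in WT and 8.29% in PARP1 KO. For niraparib against DMSO, 1 of 28 members was called in WT beside 38% of all genes, and 0 in PARP1 KO beside 0.109% (3 at an unadjusted P below 0.05, edgeR, and 0 with DESeq2).

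A difference between genotypes in the niraparib response was called for 1 rRNA. The interaction, the niraparib effect in PARP1 KO minus that in WT, was -0.21 for MT-RNR2 (SE 0.076, adjusted P = 0.042, edgeR, 95% interval -0.36 to -0.05) and 0.04 for MT-RNR1 (SE 0.082, adjusted P = 0.80), where 22.9% of all 24675 genes were called. The MT-RNR2 call was lost with RLE size factors (adjusted P = 0.060, edgeR) and with a stricter filter (adjusted P = 0.065). It was also lost without PARP1 KO DMSO replicate 2 or 3, PARP1 KO niraparib replicate 2 or 3, or WT DMSO replicate 2 or 3, the adjusted P being 0.064 to 0.13 (edgeR). For olaparib, 0 members had a called interaction beside 2.27% of all genes (1 at an unadjusted P below 0.05, edgeR, and 0 with DESeq2). The mRNAs had 0 called interactions with either drug, although all 13 were positive for niraparib (median 0.16, 1 at an unadjusted P below 0.05, edgeR, and 0 with DESeq2), where the median of all genes was 0.03. MT-ND3 was nearest at 0.22 (SE 0.098, adjusted P = 0.12, edgeR), and it was called without PARP1 KO niraparib replicate 2 (0.29, adjusted P = 0.021). The olaparib interaction was 0.12 for MT-RNR1 and -0.04 for MT-RNR2, with 95% intervals of -0.05 to 0.28 and -0.19 to 0.12.

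The ratio of rRNA to mRNA within a library does not depend on size factors. Per 100 mitochondrial mRNA counts there were 9.46, 11.02 and 12.3 rRNA counts in the WT DMSO libraries, 12.02, 11.5 and 11.6 with niraparib and 13.5, 13.5 and 13.03 with olaparib. In PARP1 KO there were 10.3, 10.5 and 9.69 with DMSO, 9.46, 8.97 and 7.68 with niraparib and 13.3, 12.6 and 11.3 with olaparib. Olaparib lay above DMSO and above niraparib without overlap in both genotypes, at 1.22 times the mean of DMSO in each. Niraparib lay below DMSO in PARP1 KO, at 0.857 times its mean, and overlapped DMSO in WT. Each of these separations gave an exact permutation P of 0.10, the smallest 3 against 3 libraries allow, and an adjusted P of 0.34 over 24 tests. Over all treatments the mean ratio was 10.4 in the 9 PARP1 KO libraries (7.68 to 13.3) and 12.01 in the 9 WT libraries (9.46 to 13.5) (exact permutation P = 0.006 with treatments as strata, adjusted P = 0.14). Counts of MT-RNR2 per count of MT-RNR1 were 5.00 to 5.26 in the WT niraparib libraries, above the 3.78 to 4.88 of the other 15. This last ratio was not among the 24 tests and was not tested.

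RNAs without a poly(A) tail from nuclear genes were looked at beside the rRNAs. Of the 19 found in the files, RN7SL1 and RN7SL2, the RNA of the signal recognition particle, had at least 1 CPM, and the 19 together had 41.5 to 154 CPM with DMSO and 70.2 to 217 CPM with olaparib in WT. In PARP1 KO they had 168 to 278 CPM with DMSO and 41.3 to 240 CPM with olaparib. Within each genotype the olaparib and DMSO ranges overlapped. With olaparib, 0 of the 4 tested were called in either genotype (0 at an unadjusted P below 0.05, edgeR, and 0 with DESeq2). With DMSO the PARP1 KO range lay above that of WT, and 0 of the 6 tested were called (0 at an unadjusted P below 0.05, edgeR, and 0 with DESeq2). Between the drugs, 1 of 4 was called higher with niraparib in WT, SNORA73B with a mean of 0.536 CPM (named after its value was seen, and 0 of 4 with DESeq2), and 0 of 4 in PARP1 KO (0 at an unadjusted P below 0.05, edgeR, and 0 with DESeq2). Selection of polyadenylated RNA acts on mitochondrial rRNAs too, and its part in the rRNA result was not tested.

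The 13 mRNAs showed no called change. With niraparib in WT, 4 had positive and 9 negative log2 fold changes, with a median of -0.03, and with olaparib 6 and 7, with a median of -0.01. In PARP1 KO the medians were 0.13 with niraparib and -0.01 with olaparib. The medians over all genes tested were -0.02, -0.02, 0.01 and 0.01 in the same order. The signs with niraparib in WT depend on the TMM factors. By mean CPM, MT-ND1, MT-ND2, MT-ND6, MT-CYB, MT-CO2, MT-CO3, MT-ATP8 and MT-ATP6 lay above DMSO and the others below. The CPM ratios ran from 0.857 for MT-ND5 to 1.24 for MT-ATP8. In none of the 9 comparisons was any of the 13 called by edgeR as fitted here, and the numbers with an unadjusted P below 0.05 were at most 4. DESeq2 called 1 (MT-CYB) between the drugs in WT and 3 (MT-ND2, MT-ATP6 and MT-CYB) between the drugs in PARP1 KO, and 0 elsewhere. Without the filter on low counts, edgeR called MT-CYB with niraparib and between the drugs in WT and with olaparib in PARP1 KO, 4 mRNAs between the drugs in PARP1 KO (MT-ND2, MT-ATP6, MT-CO3 and MT-CYB) and MT-ND3 for the niraparib interaction. The counts of 0 also rest on single libraries. Without WT DMSO replicate 1, which had the highest mitochondrial share of its group, edgeR called MT-CO1, MT-ND4 and MT-ND5 higher with olaparib and MT-CYB higher with niraparib in WT. Without WT DMSO replicate 3, MT-ND4 and MT-ND5 were called lower with niraparib. Without PARP1 KO olaparib replicate 3, MT-CYB was called lower with olaparib and MT-ND2, MT-ATP6, MT-CO3 and MT-CYB higher with niraparib than with olaparib in PARP1 KO.

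Among the complex I mRNAs, MT-ND5 had the lowest value with niraparib in WT, -0.32 (SE 0.14, adjusted P = 0.14, edgeR), and MT-ND4 had -0.17 (SE 0.11, adjusted P = 0.29). MT-ND3 had -0.10 (95% interval -0.21 to 0.01). MT-ND4L was at -0.15, MT-ND1 at -0.01 and MT-ND2 at 0.03. MT-CYB of complex III had 0.12 (95% interval -0.03 to 0.28). In complex IV, MT-CO1 was at -0.16, MT-CO2 at -0.03 and MT-CO3 at -0.01, and in complex V, MT-ATP6 was at 0.01 (95% interval -0.13 to 0.15). With olaparib in WT the same mRNAs lay between MT-CO3 at -0.09 and MT-ND4 at 0.09. For MT-ND3 and MT-CO2 the olaparib intervals, -0.15 to 0.06 and -0.09 to 0.17, leave room for small changes only. For MT-ND5 the interval was -0.31 to 0.37.

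MT-CYB came nearest to a call between the drugs. Niraparib minus olaparib was 0.18 in WT (SE 0.073, adjusted P = 0.072, edgeR, 95% interval 0.03 to 0.33) and 0.27 in PARP1 KO (SE 0.090, adjusted P = 0.086, 95% interval 0.08 to 0.47). MT-ATP6 in PARP1 KO had 0.23 (SE 0.081, adjusted P = 0.098, edgeR). MT-CYB was called between the drugs without WT olaparib replicate 3 (0.24, adjusted P = 0.027, edgeR), and without PARP1 KO olaparib replicate 3 (0.38, adjusted P = 0.0013). For MT-CO1 and MT-CO2 the drugs differed by -0.23 (95% interval -0.51 to 0.05) and -0.07 (-0.20 to 0.06) in WT and by -0.12 (-0.37 to 0.14) and 0.07 (-0.08 to 0.22) in PARP1 KO.

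**Figure D3:**
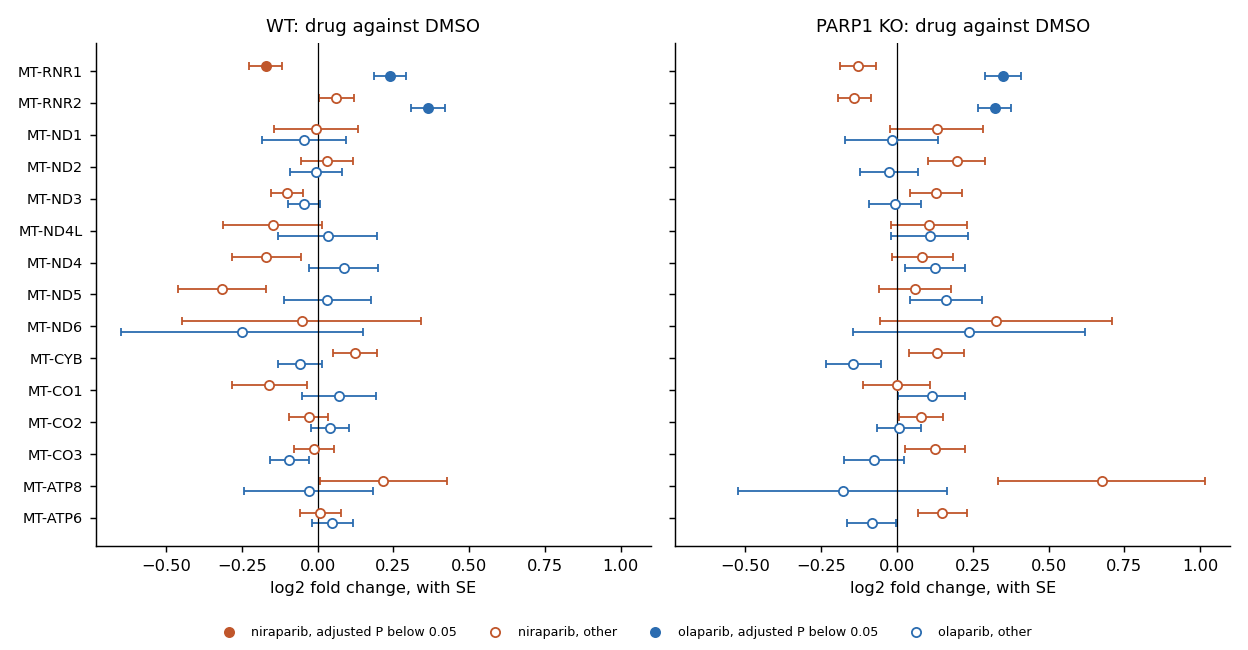
Log2 fold change against DMSO (x axis) with SE for the 2 rRNAs and 13 mRNAs (y axis) in WT (left) and PARP1 KO (right), niraparib in orange and olaparib in blue; filled points have an adjusted P value below 0.05 (edgeR). Both rRNAs are filled for olaparib in both genotypes, and no mRNA is filled.

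The widest errors belonged to the mRNAs with the lowest counts. MT-ATP8, a subunit of ATP synthase, had 81.7, 60.2 and 47.4 CPM in the WT DMSO libraries and 81.3, 83.6 and 69.2 CPM with niraparib. In PARP1 KO it had 65.7, 68.7 and 68.0 CPM with DMSO and 83.9, 70.3 and 171 CPM with niraparib. MT-ND6 of complex I had 61.8, 58.4 and 49.2 CPM with DMSO and 55.0, 46.6 and 112 CPM with niraparib in PARP1 KO. PARP1 KO niraparib replicate 3 was the highest of the 18 libraries for both. The log2 fold change of MT-ATP8 with niraparib in PARP1 KO was 0.68 (SE 0.34, adjusted P = 0.64, edgeR). The ratio of MT-ND6 to plus-strand mRNA counts over all treatments was higher in PARP1 KO than in WT by a factor of 1.32 (exact permutation P = 0.045 with treatments as strata, adjusted P = 0.34).

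Between PARP1 KO and WT with DMSO, 0 of 29 members were called beside 1.39% of all genes (3 at an unadjusted P below 0.05, edgeR, and 0 with DESeq2). The mRNAs lay between MT-ND4L at -0.09 and MT-ND6 at 0.16. MT-RNR2 was at -0.13 (SE 0.053, adjusted P = 0.28, edgeR), although the CPM of the groups did not overlap, as for 19.3% of all genes. MT-RNR1 was at -0.03. When the contrast was averaged over the 3 treatments, MT-RNR2 was at -0.21 (SE 0.031, adjusted P = 1.8e-06, edgeR), a contrast that called 24.7% of all genes. This average pools the value with DMSO with those under the drugs, and the niraparib interaction of MT-RNR2 was itself -0.21.

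Within a group the mRNAs moved from library to library together. WT DMSO replicate 1 had the highest CPM of its group for 13 of 13 mRNAs, as did WT niraparib replicate 2, PARP1 KO niraparib replicate 3 and PARP1 KO olaparib replicate 3. WT olaparib replicate 3 was highest for 12 of 13 and PARP1 KO DMSO replicate 3 for 10 of 13. All 13 share the denominator of their library. Apart from MT-ATP8 and MT-ND6, the coefficients of variation within groups were 7.31% to 13.6% for the CPM of single mRNAs and 1.49% to 5.06% for their share of mRNA counts. For all 13 the share of mRNA counts varied less than the CPM.

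On this scale the values of some mRNAs did not overlap between treatments, while their CPM mostly did. MT-CYB, cytochrome b of complex III (chromosome MT from 14747 to 15887), was 6.49%, 6.82% and 6.82% of mRNA counts in the WT DMSO libraries, 7.65%, 7.73% and 7.99% with niraparib and 6.24%, 6.41% and 6.22% with olaparib. In the knockout line it made up 7.03%, 7.28% and 7.09% with DMSO, 7.16%, 7.54% and 7.29% with niraparib and 6.35%, 6.16% and 6.22% with olaparib. Niraparib stood above DMSO without overlap in WT and overlapped it in PARP1 KO, and olaparib lay below DMSO without overlap in both genotypes.

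MT-ND5 of complex I (chromosome MT from 12337 to 14148), which lies upstream of MT-CYB on the same strand, ran the other way. It was 9.15%, 8.32% and 8.33% of mRNA counts in the WT DMSO libraries, 7.54%, 7.43% and 7.29% with niraparib and 8.84%, 8.34% and 8.69% with olaparib. In the knockout line it made up 8.22%, 8.19% and 8.30% with DMSO, 7.97%, 7.83% and 8.32% with niraparib and 8.61%, 9.27% and 8.88% with olaparib. The niraparib libraries were lowest in WT without overlap and overlapped DMSO in PARP1 KO, where the olaparib libraries were highest. Counts of MT-CYB per 100 of MT-ND5 were 71.0 to 82.0 with DMSO, 102 to 110 with niraparib and 70.5 to 76.8 with olaparib in WT. In PARP1 KO they were 85.3 to 88.9, 87.7 to 96.3 and 66.5 to 73.7 in the same order. This ratio was chosen after the values were seen and was not tested.

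MT-ND2 of complex I (chromosome MT from 4470 to 5511) was 4.58% to 4.67% of mRNA counts with DMSO, 5.01% to 5.08% with niraparib and 4.47% to 4.53% with olaparib in WT. In PARP1 KO it was 4.53% to 4.86%, 4.98% to 5.06% and 4.40% to 4.47%. The 3 treatments did not overlap in either genotype, in the order niraparib, DMSO, olaparib. MT-CO1, the catalytic subunit of complex IV, was 15.1% to 15.3% with DMSO, 14.2% to 14.4% with niraparib and 15.5% to 16.2% with olaparib in PARP1 KO, in the reverse order. In WT, niraparib at 13.8% to 14.4% overlapped DMSO at 14.3% to 15.2%.

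**Figure D4:**
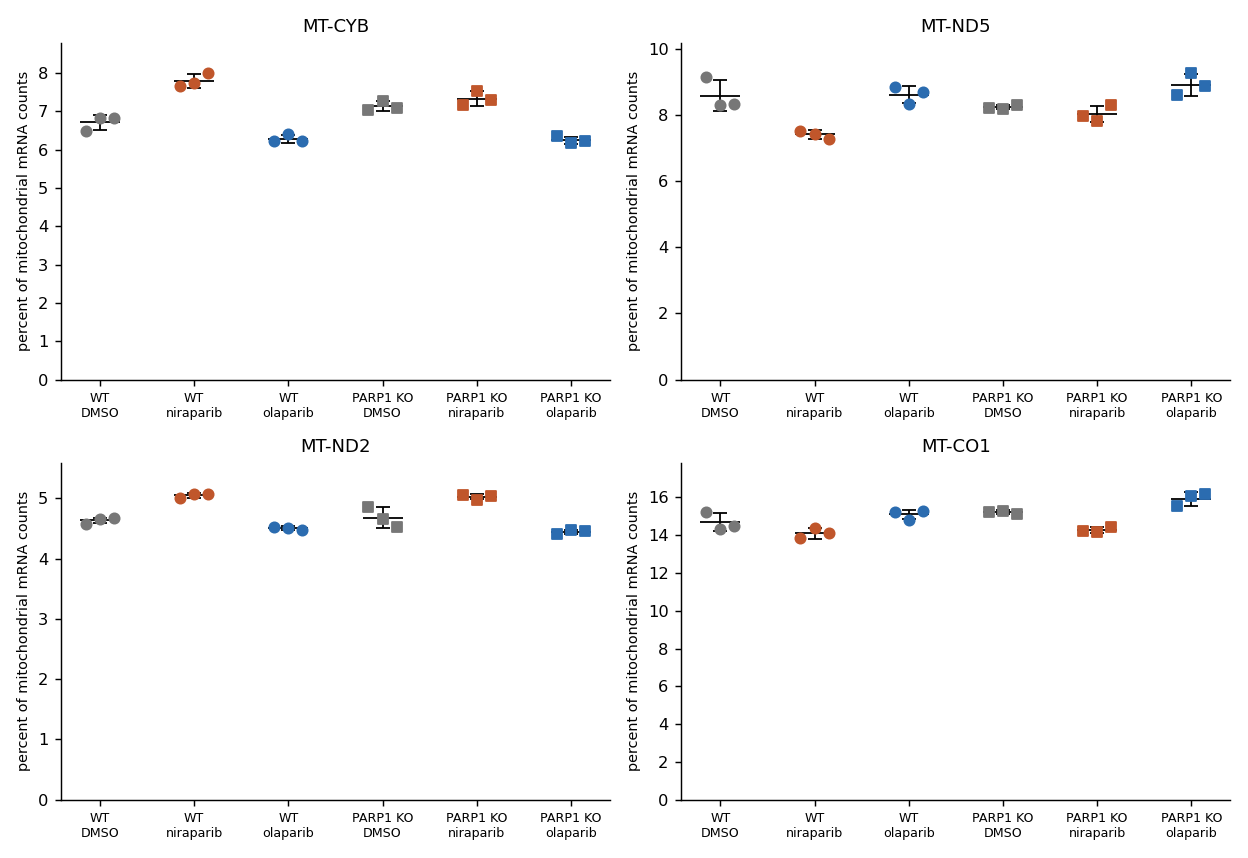
MT-CYB, MT-ND5, MT-ND2 and MT-CO1 as percent of the counts on the 13 mitochondrial mRNAs (y axis) in each library, by genotype and treatment, with group mean and SD (n = 3). In WT the niraparib libraries are highest for MT-CYB (7.65% to 7.99%) and lowest for MT-ND5 (7.29% to 7.54%).

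Counted over the 13 mRNAs, the share of mRNA counts did not overlap between niraparib and DMSO for 5 in WT and 3 in PARP1 KO. Between olaparib and DMSO it did not overlap for 5 in WT and 8 in PARP1 KO, and between the drugs for 9 in WT and 8 in PARP1 KO. In CPM the same 13 mRNAs did not overlap for 0, 2, 0, 0, 4 and 2 in this order, beside 47%, 15.5%, 36.1%, 26.6%, 45.2% and 25.9% of all genes tested. The share of mRNA counts has no such background over all genes, so its counts are a description. The shares add to a fixed sum, so a rise in MT-ND4, the largest, lowers the others. Between the drugs, MT-ND2, MT-ATP8, MT-CO3 and MT-CYB were higher and MT-CO1, MT-ND4 and MT-ND5 lower with niraparib without overlap in both genotypes. In WT, MT-ND1 and MT-CO2, and in PARP1 KO, MT-ATP6 were also higher without overlap. Between PARP1 KO and WT with DMSO, MT-CYB was higher and MT-ND5 lower without overlap in their share of mRNA counts, 2 of 13. In CPM 0 of 13 were apart, beside 19.3% of all genes. Fewer libraries overlap less by construction. Niraparib against DMSO gave 8 without WT niraparib replicate 2, and in PARP1 KO 5 without niraparib replicate 1 or DMSO replicate 2 and 7 without niraparib replicate 3. Olaparib against DMSO in WT gave 10 without WT DMSO replicate 1. Between genotypes 8 were apart without WT DMSO replicate 1. They numbered 4 without replicate 3 of WT DMSO and 5 without replicate 3 of PARP1 KO DMSO. These shares were not tested across all genes.

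Nuclear genome copies of mitochondrial DNA can take reads from the mitochondrial genes. On chromosome 1, MTATP6P1 had 16.3 to 19.2 counts per 100 of MT-ATP6 and MTND2P28 had 4.06 to 4.47 per 100 of MT-ND2, while MTCO1P12 had 7.51 to 11.6 CPM. A read with several alignments was counted at its primary one, so MT-ATP6 and MT-ND2 are uncertain by such a share. None of the 3 was called in any of the 9 comparisons, and adding their counts to MT-ATP6, MT-ND2 and MT-CO1 changed no call of a member.

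The nuclear genes for partner subunits of the same complexes had called changes. With niraparib in WT, 45 of 77 nuclear genes for subunits of complexes I to V fell and 4 rose, against 18.1% of all genes called lower and 19.9% called higher. For complex IV 10 of 11 nuclear genes fell (median log2 fold change -0.40), for complex V 15 of 16 (median -0.29), for complex III 5 of 9 (median -0.17) and for complex I 14 of 37 (median -0.11), where 4 rose. The median of all genes was -0.02. The difference between the nuclear and mitochondrial subunits was not itself tested. UQCR10, a small subunit of complex III, fell by 0.69 (SE 0.061, adjusted P = 7.4e-09, edgeR). NDUFV2 of complex I had 1.56 CPM and fell by 0.75 (SE 0.28, adjusted P = 0.040, edgeR).

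With niraparib in PARP1 KO, where 0.109% of all genes were called, 0 of the 77 were (3 at an unadjusted P below 0.05, edgeR, and 0 with DESeq2). The interaction was called positive for 26 of 77 and negative for 0, with 10.4% of all genes called positive and 12.5% negative. They included 9 of 11 for complex IV and 9 of 16 for complex V, and NDUFA1 of complex I at 0.60 (SE 0.096, adjusted P = 7.2e-06, edgeR). With olaparib, 4 of 77 fell in WT beside 7.77% of all genes, and 14 of 77 fell in PARP1 KO beside 3.87%. Between the drugs in WT, 5 of 77 were higher and 32 lower with niraparib, where 3605 of 22446 genes were higher and 3627 lower. In PARP1 KO 15 were higher and 0 lower, where 940 of 22037 genes were higher and 1263 lower.

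**Figure D5:**
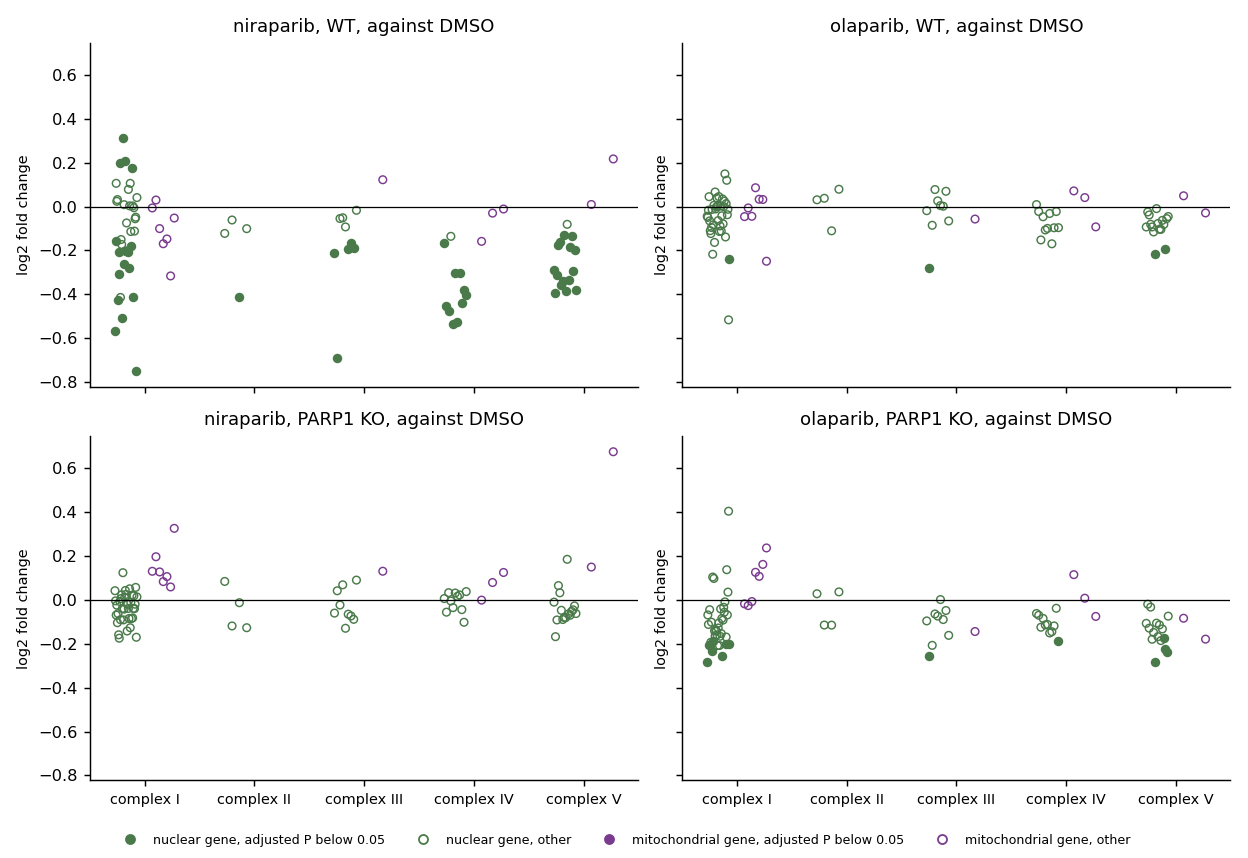
Log2 fold change against DMSO (y axis) of 77 nuclear (green) and 13 mitochondrial (purple) subunit genes of complexes I to V (x axis), for each drug and genotype; filled points have an adjusted P value below 0.05 (edgeR). Complex II has no mitochondrial subunit. Filled nuclear points lie mostly below 0 with niraparib in WT, and no mitochondrial point is filled.

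Among 24 nuclear genes for transcription and copy number of mitochondrial DNA, 10 rose and 7 fell with niraparib in WT, beside 19.9% and 18.1% of all genes. TFAM rose by 0.27 on the log2 scale (SE 0.049, adjusted P = 9.4e-05, edgeR), while POLRMT was at -0.05 (adjusted P = 0.50) and TFB2M at -0.03 (adjusted P = 0.77). RRM2B, a ribonucleotide reductase subunit that supplies nucleotides for mitochondrial DNA and is a p53 target, rose by 1.08 (SE 0.051, adjusted P = 3.9e-13, edgeR). TWNK, the mitochondrial DNA helicase, rose by 0.62 (SE 0.067, adjusted P = 1.3e-07, edgeR), and MTERF1, which binds DNA just past the rRNA genes, by 0.65 (SE 0.12, adjusted P = 9.5e-05). MTERF2 fell by 0.72 (SE 0.075, adjusted P = 8.5e-08, edgeR) and POLG2, the accessory subunit of the mitochondrial DNA polymerase, by 0.70 (SE 0.14, adjusted P = 0.0015). In PARP1 KO, where 0.109% of all genes were called, none of the 24 was called with niraparib (1 at an unadjusted P below 0.05, edgeR, and 0 with DESeq2). There TFAM, POLRMT and TFB2M were at -0.09, 0.05 and -0.13.

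With olaparib, 5 of these 24 rose and 3 fell in WT, and 2 rose and 5 fell in PARP1 KO, none by 1.5-fold. Over all genes 11.2% rose and 7.77% fell with olaparib in WT, and 4.42% rose and 3.87% fell in PARP1 KO. TFAM, POLRMT and TFB2M were not called with olaparib in either genotype, at 0.10, -0.10 and -0.12 in WT and -0.05, 0.05 and -0.21 in PARP1 KO. Between the drugs in WT, 10 of the 24 were called higher and 8 lower with niraparib, where 32.2% of all genes were called. TFAM was among the higher (0.17, SE 0.049, adjusted P = 0.0091, edgeR), and POLRMT and TFB2M were not called. Of 32 genes for processing and stability of mitochondrial RNA, 13 rose and 5 fell with niraparib in WT, 3 rose and 6 fell with olaparib in WT, and 5 fell with olaparib in PARP1 KO. Over all genes 19.9% rose and 18.1% fell with niraparib in WT, and 11.2% rose and 7.77% fell with olaparib, while 3.87% fell with olaparib in PARP1 KO. The 1 change past 1.5-fold with olaparib was in FASTKD5, an RNA-binding protein needed to process mitochondrial precursors, which fell by 0.60 with olaparib in PARP1 KO (SE 0.079, adjusted P = 9.7e-05, edgeR). Between the drugs in WT, 15 of the 32 were higher and 1 lower with niraparib, where 3605 of 22446 genes were higher and 3627 lower. TRNT1 at 0.72 (SE 0.078, adjusted P = 2.3e-07, edgeR) and FASTKD5 at 0.59 (SE 0.090, adjusted P = 2.2e-05, edgeR) passed 1.5-fold. In PARP1 KO 5 were higher and 2 lower, where 940 of 22037 genes were higher and 1263 lower.

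Of 78 mitochondrial ribosomal proteins, the protein partners of the rRNAs, 4 rose and 7 fell with olaparib in WT (median -0.02). Over all genes 11.2% rose and 7.77% fell. In PARP1 KO 0 rose and 13 fell with olaparib (median -0.13), beside 4.42% and 3.87% of all genes. With niraparib in WT 23 rose and 16 fell, beside 19.9% and 18.1% of all genes. The 2 past 1.5-fold had low counts. MRPL23, with a mean of 1.11 CPM, rose by 0.68 (SE 0.26, adjusted P = 0.042, edgeR). MRPL46, with 2.32 CPM, rose by 0.63 (SE 0.18, adjusted P = 0.0070, edgeR). Among 16 regulators of mitochondrial biogenesis, 7 rose and 2 fell with niraparib in WT and 5 rose and 1 fell with olaparib in WT. Over all genes 19.9% rose and 18.1% fell with niraparib, and 11.2% rose and 7.77% fell with olaparib. PPARGC1B, a coactivator of respiratory genes, rose by 0.80 with olaparib in WT (SE 0.13, adjusted P = 9.5e-05, edgeR), and MYC fell by 0.63 (SE 0.074, adjusted P = 1.9e-05).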

How the data were processed

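The authors trimmed reads with Trimmomatic, mapped them to hg38 with STAR and marked duplicates in Picard. The deposited values are raw counts by gene from featureCounts 2.0.0, set to primary alignments on the reverse strand over exons of Ensembl release 96. Duplicate removal is implied by the names of the files, whereas the methods mention detection and counting of duplicates alone. MT-ND4 had 271 to 504 counts per base, a depth at which removal could lower high counts. Labels and methods differ on RNA input, growth medium and extraction kit. Sequences came from hg38, where the coordinates of all 37 genes match those of the files.

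The test for genes with more than 10 counts in total per fit was from edgeR 4.0.16, run under R 4.3.3 (TMM, robust quasi-likelihood F test, Benjamini-Hochberg over all genes): 9 libraries per genotype for drug effects, all 18 for genotype and interactions. Called means an adjusted P below 0.05. SE is the absolute log2 fold change over the square root of F. Shares and ratios were compared by 24 exact permutation tests (SciPy 1.17.1). Biological coefficients of variation were 7.04%, 7.42% and 7.24% (WT, PARP1 KO, all). In simulated WT counts with 200 genes changed by 1 on the log2 scale, edgeR called 188, and 21 of the other genes, among 21915. The same simulation gave 185 and 19 others in PARP1 KO, and 177 and 8 others for the niraparib interaction. Smaller changes, such as those of the rRNAs, were not simulated, so power to call them was not tested. All 18 replicate pairs differed beyond sampling noise (chi-square per gene 3.13 to 19.0).

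All 37 members are accounted for. Genes for tRNAs and nuclear genes were named at a mean of at least 1 CPM. Genes of nuclear lists also needed more than 1.5-fold, with up to 3 per list and direction. POLRMT, TFAM and TFB2M were named at any change. Not every comparison is given for each nuclear gene. Nuclear copies and PARP1 were named at any change. Named outside this rule, after their values were seen, were MT-TV, RN7SL1, RN7SL2, SNORA73B and marker genes without a 1.5-fold change. Members and lists were chosen with earlier results of these data known. Alternatives were RLE size factors, scaling by nuclear genes only, filterByExpr, no filter, DESeq2 1.42.0, a replicate block, other sets of libraries and each library left out in turn.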

Additional observations from a re-analysis of the deposited data

Results flagged for a closer look

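The genotypes differed in their response to niraparib by a test of the difference itself for 1 mitochondrially encoded gene and for 9 of the nuclear genes named from the mitochondrial lists (interaction in edgeR, PARP1 KO minus WT, log2 scale). Apart from TFAM, these 9 were named for passing the threshold and 1.5-fold in this same contrast, so their number is not itself a result. The member was MT-RNR2 at -0.21 (adjusted P = 0.042), close to the threshold, with 22.9% of all genes called. Among genes for mitochondrial DNA transcription and copy number the interaction was -1.18 for RRM2B, -0.95 for MTERF1, -0.79 for TWNK, -0.37 for TFAM and 0.61 for MTERF2. For subunits of complexes III and I it was 0.73 for UQCR10 and 0.60 for NDUFA1. For the mitochondrial ribosomal proteins MRPS30 and MRPL15 it was -0.67 and -0.60. Over whole lists, 2 of 24 genes for transcription and copy number were called positive and 8 negative. The counts were 1 and 12 of 32 for RNA processing and 0 and 8 of 16 for biogenesis regulators. They were 26 and 0 of 77 for complex subunits and 7 and 19 of 78 for ribosomal proteins. Over all genes 10.4% were called positive and 12.5% negative. The luminal markers PGR and GATA3, outside those lists, both had an interaction of 0.71. Groups of 3 libraries were too small for a test of outlying values.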

How the results depend on the processing

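Of 2329 values of single members under the alternatives, 2289 kept their side of the threshold, 30 became significant and 10 lost significance. The sign changed in 164, none of them called in either fit. The olaparib calls of both rRNAs, and those between the drugs, held under DESeq2, RLE size factors, nuclear scaling, filterByExpr, no filter and every library left out, but 0 of the 2 rRNAs passed 1.5-fold in any comparison. The MT-RNR2 interaction with niraparib was lost under RLE size factors and filterByExpr (0 of 2 rRNAs), and averaging the genotype contrast over treatments gave 1 rRNA. Without a filter on low counts 1 mRNA was called with niraparib in WT, between the drugs in WT, with olaparib in PARP1 KO and for the niraparib interaction, and 4 between the drugs in PARP1 KO; DESeq2 gave 1 and 3 between the drugs in WT and PARP1 KO. The cause was not tested.

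With each library left out in turn, called mRNAs ranged over 0 to 2 (niraparib, WT), 0 to 3 (olaparib, WT), 0 to 1 (between drugs, WT), 0 to 1 (olaparib, PARP1 KO), 0 to 4 (between drugs, PARP1 KO) and 0 to 1 (niraparib interaction), and called rRNAs over 0 to 1 for niraparib in WT and for its interaction. Of 13 mRNAs, those with shares of mRNA counts apart ranged over 5 to 8 and 5 to 10 in WT (niraparib and olaparib against DMSO), 3 to 7 in PARP1 KO (niraparib) and 2 to 8 between genotypes.

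With the rRNA share in place of the mitochondrial share of counts, the log2 ratio was 0.12 for niraparib, 0.34 for olaparib and -0.23 between the drugs in WT, and -0.12 for niraparib, 0.32 for olaparib and -0.44 between the drugs in PARP1 KO. A fit with the replicate number as a block called 4 mRNAs between the drugs in PARP1 KO (MT-ND2, MT-ATP6, MT-CO3 and MT-CYB) and otherwise kept the number of called members. Same-numbered libraries did not deviate together in every pair (r from -0.56 to 0.58). For the drugs in PARP1 KO r was 0.38, -0.14 and 0.58 for replicates 1, 2 and 3, so the numbers were not taken to pair the samples. Most tRNAs, 20 of 22, had a mean below 1 CPM, and their counts are imprecise. MT-ND6 and MT-ATP8 had at least 1262 and 1915 counts in each library, and what set their spread within groups (coefficient of variation of CPM 35.0% for MT-ND6) was not tested.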
